A study of Rattus norvegicus with 6 samples.

Results

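The circadian clock genes described here were 10 genes chosen by symbol, Arntl, Clock, Per1, Per2, Per3, Cry1, Cry2, Nr1d1, Nr1d2 and Dbp, of the 17327 genes in the count files. All 10 were found and all 10 passed the filter on low counts. RNA was sequenced from primary Schwann cells, which ensheath axons in peripheral nerves and had been purified from sciatic nerves of adult female Wistar rats. Confluent cells were starved for 18 h in medium with 2% serum and 10 μM forskolin, a compound that raises intracellular cAMP, and were then given 10 nM soluble Neuregulin1β1 (NRG1, 3 samples) or its buffer alone (mock, 3 samples) for 6 h. Serum at this level and forskolin were thus present in both groups, and before starvation every culture had been grown with a neuregulin-type factor in the medium. Each number in the labels, 1, 2 or 3, stood for an independent cell preparation that gave 1 mock and 1 NRG1 sample, from here on called a culture. Neither the time of day of collection nor any other time point after stimulation was analysed here.

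The circadian clock is a loop of transcription and repression that runs in nearly every cell. The transcription factors CLOCK and BMAL1 (the product of Arntl) bind E-box sequences together and switch on the Per and Cry genes, whose proteins then return to the nucleus and repress CLOCK and BMAL1. The same activators drive Nr1d1 and Nr1d2, which encode the nuclear receptors REV-ERBα and REV-ERBβ that repress Arntl through response elements shared with the ROR receptors, and Dbp, which encodes an activator that binds D-box sequences. Per genes can also be switched on directly through cAMP response elements (CRE), and serum or forskolin can reset the clock of cultured cells.

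The DNA just before the start of 4 of these genes is shown because Nr1d2 and Dbp were among the members that fell, and because the windows of Arntl and Per2 hold letters of a clock element. The sequences are from RefSeq on the GRCr8 build, while the counts were made on rn5. The table held windows for 9 of the 10 members, and Cry1 is only named. Each line gives the 250 bases before the annotated start, 5′ to 3′, with exact matches to the motifs searched in capitals.
Nr1d2: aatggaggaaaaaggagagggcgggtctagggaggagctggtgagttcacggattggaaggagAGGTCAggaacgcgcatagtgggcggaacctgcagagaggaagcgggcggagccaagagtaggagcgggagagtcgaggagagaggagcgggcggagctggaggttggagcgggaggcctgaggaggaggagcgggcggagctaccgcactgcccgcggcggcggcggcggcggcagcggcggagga
Dbp: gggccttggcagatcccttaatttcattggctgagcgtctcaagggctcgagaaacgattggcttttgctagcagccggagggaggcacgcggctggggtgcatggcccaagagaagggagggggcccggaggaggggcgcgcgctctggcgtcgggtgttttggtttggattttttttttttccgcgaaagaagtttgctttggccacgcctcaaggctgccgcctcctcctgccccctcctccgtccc
Arntl: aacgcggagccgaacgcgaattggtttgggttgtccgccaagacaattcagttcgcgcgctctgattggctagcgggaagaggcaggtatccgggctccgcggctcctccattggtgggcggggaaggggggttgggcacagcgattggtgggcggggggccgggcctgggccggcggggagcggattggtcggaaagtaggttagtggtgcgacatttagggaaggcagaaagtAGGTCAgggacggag
Per2: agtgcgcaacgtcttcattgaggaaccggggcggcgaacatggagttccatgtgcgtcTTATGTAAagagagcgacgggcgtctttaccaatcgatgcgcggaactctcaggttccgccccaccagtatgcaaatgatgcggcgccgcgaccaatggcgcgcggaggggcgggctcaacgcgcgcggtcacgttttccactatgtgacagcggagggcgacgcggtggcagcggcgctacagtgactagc
The windows lie at chr15:9954784-9955033 (Nr1d2, plus strand), chr1:105312006-105312255 (Dbp, plus strand), chr1:176766078-176766327 (Arntl, listed as Bmal1, plus strand) and chr9:99496994-99497243 (Per2, minus strand). Both strands of the full window, which also takes in 50 bases after the start, were searched for the E-box CACGTG, the CRE TGACGTCA, its core TGACG, the ROR and REV-ERB core AGGTCA and the D-box TTANGTAA, where every CRE also contains this core. The core AGGTCA stood at position -15 from the start in Arntl and at -187 in Nr1d2, and 16.2% of all 33469 promoter windows in the table held it. The D-box stood at -192 in Per2, against 2.24% of all windows. The E-box was found in 1 member only, in the second of the 2 windows listed for Nr1d1, against 6.42% of all windows. Only these exact letters within the window were searched, so variant forms of the E-box and sites farther from the start were not covered. The CRE was found in none of the members' windows and in 1.83% of all windows, while its core, held by 21.2% of all windows, was found in Per2, Per3 and Nr1d2. The Dbp window held none of these letters, and neither did the windows of Per1, which also fell, Clock and Cry2, which are not shown.

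Counts on genes ranged from 6821590 to 15475018 per sample, so that 3 counts, taken as the floor, corresponded to between 0.194 and 0.444 CPM, the count of a gene scaled to the size of its library. The NRG1 library was the larger one in every culture. Schwann cell markers were detected in all 6 samples, but culture 1 stood apart from the others. The summed level of 8 Schwann cell markers was 6170 CPM in mock and 4820 CPM in NRG1 samples of culture 1, against 12600 to 16100 CPM in cultures 2 and 3. The summed level of 6 fibroblast markers was 53400 and 57700 CPM in culture 1 and 13700 to 22300 CPM elsewhere, and of these 6 genes Dcn, Lum and Thy1 were at 0 counts in cultures 2 and 3. Acta2, a gene of smooth muscle and pericytes, was counted at 1810 and 1840 CPM in culture 1 and at most at 4.59 CPM in the others. Under NRG1, 4 of the 8 Schwann cell markers fell, among them S100b, Egr2 and Cdh19, and none of the 3 fibroblast markers that could be tested passed. The part of cell make-up in the results below was not tested, and values without culture 1 are given where the call of a member depends on it.

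NRG1 lowered 3 of the 10 clock genes, Per1, Nr1d2 and Dbp, to between 0.583 and 0.696 of the mock level. No member rose at the same threshold, which 6.31% of all genes passed upwards. A gene was counted as having passed at an adjusted p of at most 0.01 in edgeR's quasi-likelihood test with the culture as a block, a rule that 11.8% of all 9740 genes tested passed and that 5.51% passed downwards. The median log2 fold change of the 10 members was -0.27, beside -0.03 for all genes tested, and no member passed the study's additional threshold of an absolute log2 fold change over 1, which 3.47% of all genes did. The members were chosen with earlier results of these data known, so their values beside those of all genes are a description only. At a looser adjusted p of 0.05, which 23.2% of all genes passed, Arntl was added upwards (11.5% of all genes) and Cry2 downwards (11.7%). At an unadjusted p under 0.05 there were 6 members, 1 higher (beside 17% of all genes) and 5 lower (beside 18.7%) in NRG1 samples. With the same block, DESeq2 found 2 members that fell, Per1 and Nr1d2 but not Dbp, and limma-voom found 3. Neither found a member that rose. Of all genes, 9.66% passed in DESeq2 and 12.4% in limma-voom, in either direction. In these bulk samples fewer cells expressing a gene and less RNA per cell cannot be told apart. Without the block, edgeR passed 0 of the 9740 genes and thus no member, with adjusted p-values of 0.22 for Per1, 0.18 for Nr1d2 and 0.20 for Dbp, while 4 members and 13.7% of all genes had an unadjusted p under 0.05.

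**Figure D1:**
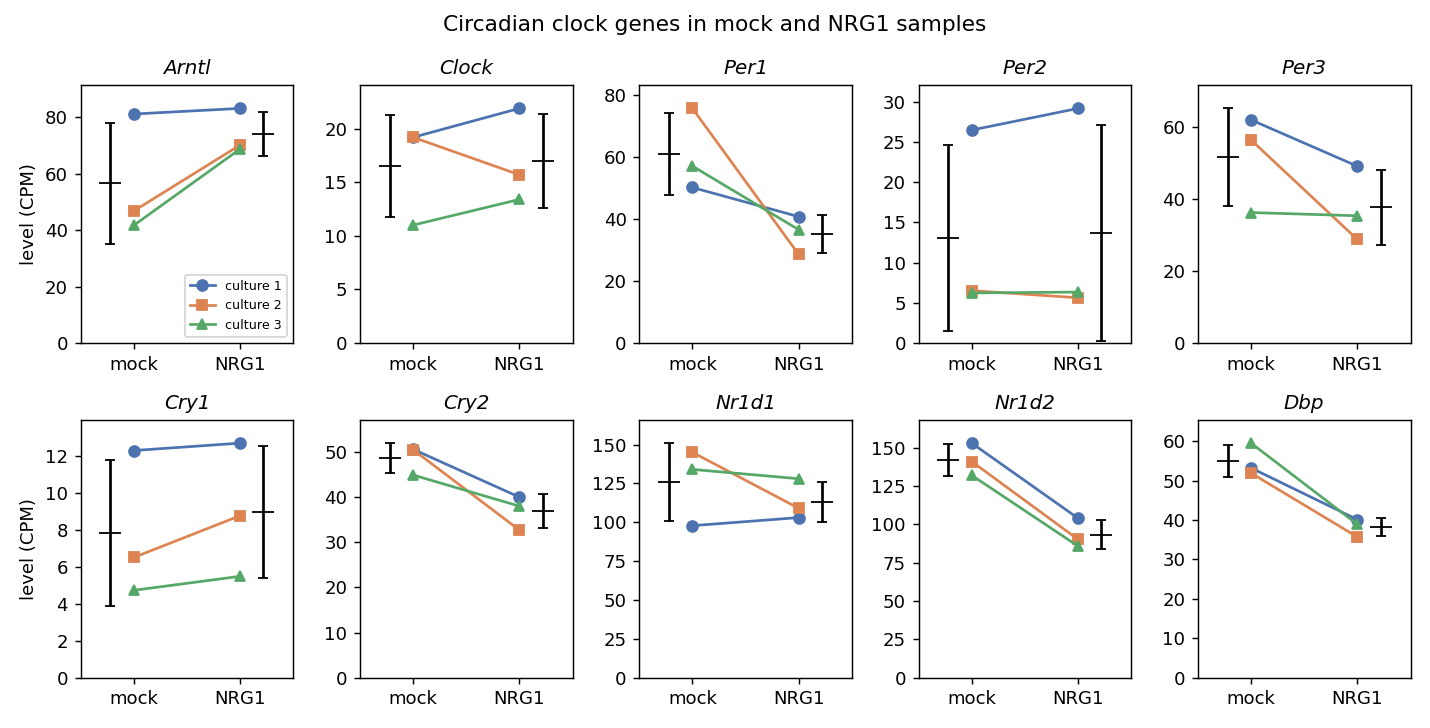
Level of each clock gene in CPM (vertical axes start at 0) in mock and NRG1 samples, with a line joining the samples of each culture and black marks for the mean ± SD of 3 samples. The lines of Nr1d2, Dbp, Cry2 and Per1 all go down and their groups do not overlap, whereas Per2 is set apart by culture 1 in both conditions.

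Among the repressors, Per1 encodes a PERIOD protein and is the member of its family best known for a rapid response to cAMP and other stimuli. It was counted at 50.1, 75.6 and 57 CPM in mock samples 1, 2 and 3 and at 40.7, 28.5 and 36.5 CPM in NRG1 samples 1, 2 and 3. Every NRG1 sample lay below every mock sample, and culture 2 had both the highest mock and the lowest NRG1 level. The log2 fold change was -0.78 (with a standard error, SE, of 0.17 and an adjusted p of 0.0053), the largest of the 10 members in size. The log2 ratios within cultures 1, 2 and 3 were -0.30, -1.40 and -0.64, so that the fall differed between cultures in size but not in direction. Without culture 2 the log2 fold change was -0.48 and the adjusted p 0.017, without culture 1 it was -1.01 (adjusted p = 5.1e-06), and with counts thinned to the smallest library the adjusted p was 0.012.

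Per2, the PERIOD gene whose window holds the D-box shown above, was counted at 26.5, 6.51 and 6.22 CPM in mock and at 29.2, 5.62 and 6.33 CPM in NRG1 samples 1, 2 and 3. The groups overlapped almost completely, and culture 1 was high in both. The log2 fold change was 0.02 (SE 0.18, adjusted p = 0.96). Per3, the third PERIOD gene, was counted at 62.1, 56.5 and 36.3 CPM in mock and at 49.2, 28.8 and 35.4 CPM in NRG1 samples. It was lower in the NRG1 sample of each culture, but by log2 ratios that ranged from -0.04 in culture 3 to -0.97 in culture 2, and the groups overlapped. Its log2 fold change of -0.44 (SE 0.16) did not pass, with an adjusted p of 0.065.

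The cryptochromes, which bind PERIOD proteins and are the strongest repressors of CLOCK and BMAL1, had values of opposite sign. Cry2 was counted at 50.6, 50.5 and 44.9 CPM in mock and at 40, 32.7 and 38 CPM in NRG1 samples. The groups did not overlap and the mock samples were close together. Nevertheless the log2 fold change of -0.40 (SE 0.13, adjusted p = 0.042) missed the threshold of 0.01 and would pass at 0.05. It missed 0.05 as well in DESeq2 with the block (-0.38, adjusted p = 0.14) and with counts thinned to the smallest library (adjusted p = 0.054). In edgeR, leaving out any 1 culture gave an adjusted p of 0.11 for Cry2. Cry1 was counted at 12.3, 6.51 and 4.73 CPM in mock and at 12.7, 8.77 and 5.49 CPM in NRG1 samples. It was slightly higher with NRG1 in each culture, by less than the distance between cultures, and its log2 fold change of 0.22 (SE 0.20) had an adjusted p of 0.47. Cry1 had between 44 and 95 counts per sample.

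Of the nuclear receptors, Nr1d2 gave the smallest adjusted p of all members. It was counted at 153, 141 and 132 CPM in mock and at 104, 90.2 and 85.8 CPM in NRG1 samples 1, 2 and 3. The lowest mock sample lay above the highest NRG1 sample, and the order of the cultures was the same in both groups. The log2 fold change was -0.61 (SE 0.11, adjusted p = 0.0018), a fold of 0.656, and the log2 ratios of -0.55, -0.64 and -0.62 were nearly equal in the 3 cultures. Without culture 1 it was -0.63 (adjusted p = 0.0041), and without culture 3, which has the deepest libraries, it was -0.58 and missed the threshold (adjusted p = 0.022). Nr1d1, the related receptor gene, was counted at 97.8, 145 and 134 CPM in mock and at 103, 109 and 128 CPM in NRG1 samples. These values overlapped, and the direction differed between cultures. The log2 fold change of Nr1d1 was -0.14 (SE 0.13, adjusted p = 0.47).

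Dbp, an output of the clock that CLOCK and BMAL1 drive and that in turn acts on D-box genes, was counted at 53.2, 51.9 and 59.5 CPM in mock and at 40.1, 35.7 and 38.9 CPM in NRG1 samples. The mock samples were all above 50 CPM and the NRG1 samples at or below 40.1 CPM, with little spread in either group. The log2 fold change was -0.52 (SE 0.13, adjusted p = 0.0083), and the log2 ratios within cultures were -0.40, -0.54 and -0.61. This call lay close to the threshold. It was lost without culture 1 (log2 fold change -0.57, adjusted p = 0.018), without culture 3 (-0.45, adjusted p = 0.11) and in DESeq2 with the block (-0.51, adjusted p = 0.027).

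The activators did not pass. Arntl was counted at 81.2, 46.8 and 41.7 CPM in mock and at 83.2, 70.2 and 68.8 CPM in NRG1 samples 1, 2 and 3. In cultures 2 and 3 the NRG1 sample was well above its mock sample, while in culture 1 both were high and nearly equal, with log2 ratios of 0.03, 0.58 and 0.72. Over all cultures the log2 fold change was 0.45 (SE 0.14, adjusted p = 0.035), the highest of the 10 members. Without culture 1 it was 0.66 and passed with an adjusted p of 0.0042, in an edgeR fit that 12% of all genes passed. Without culture 2 it was 0.39 (adjusted p = 0.086) and without culture 3 it was 0.33 (adjusted p = 0.27). DESeq2 with the block gave 0.46 for Arntl (adjusted p = 0.058). Clock, which encodes the partner of BMAL1, was counted at 19.2, 19.2 and 11 CPM in mock and at 21.9, 15.7 and 13.4 CPM in NRG1 samples. The direction differed between cultures and the log2 fold change was 0.06 (SE 0.17, adjusted p = 0.82).

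**Figure D2:**
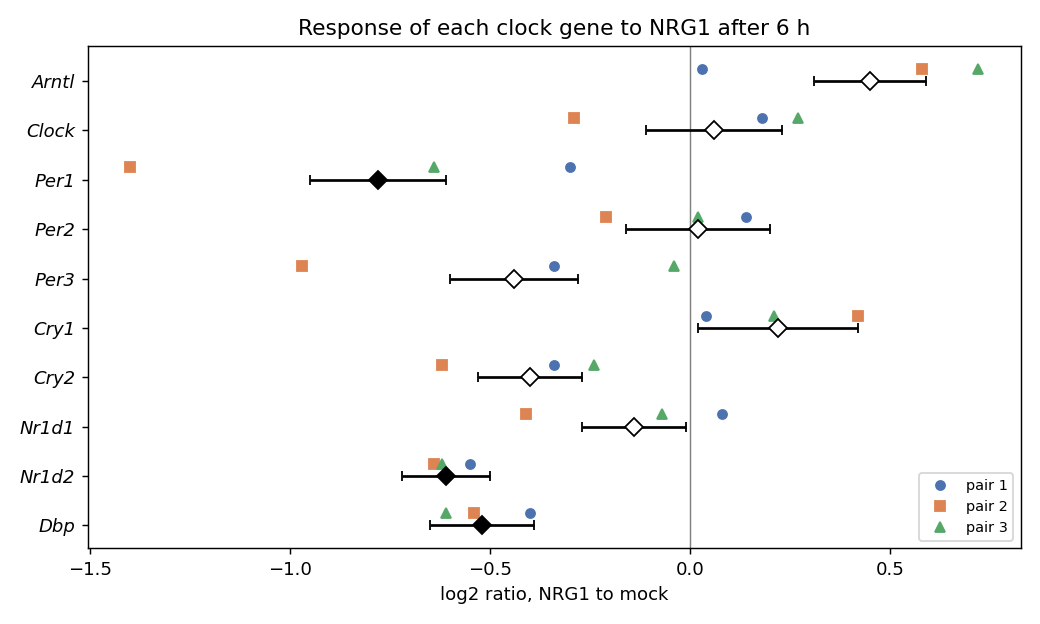
Log2 ratio of NRG1 to mock for each clock gene, with coloured symbols for the ratio within each of the 3 cultures and diamonds with bars for the edgeR log2 fold change ± standard error. Filled diamonds, at -0.78 for Per1, -0.61 for Nr1d2 and -0.52 for Dbp, mark genes with an adjusted p of at most 0.01.

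In direction, 7 of the 10 members moved the same way in all 3 cultures, beside 56% of all genes tested, and for 4 of the 10 (Per1, Cry2, Nr1d2 and Dbp) the ranges of the groups did not overlap, beside 20.1% of all genes tested. An exact sign-flip permutation test on 3 pairs, two-sided, cannot give a p below 0.25 for any single gene, so the calls rest on the spread shared across genes in the edgeR fit. Related members were then compared with each other by subtracting their log2 ratios within each culture. The response of Nr1d1 was higher than that of Nr1d2 by 0.47 ± 0.21 (SD, n = 3), and the difference had the same sign in each culture, at 0.63, 0.23 and 0.55. The response of Per1 was below that of Per2 by log2 differences of -0.44, -1.19 and -0.66, and that of Cry1 was above that of Cry2 by 0.38, 1.04 and 0.45. For each of these comparisons the exact permutation p was 0.25, the smallest that 3 pairs allow, and 0.31 after Benjamini-Hochberg adjustment over the 5 comparisons made. Per2 lay above Per3 by 0.43 ± 0.35 (SD, n = 3), and Per1 and Per3 differed by less, with a mean of -0.33 ± 0.33 (SD, n = 3) and differing signs.

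Levels were then compared between the 3 cultures, over both conditions. In the same edgeR fit, 2 of the 10 members, Per2 (adjusted p = 7.1e-07) and Cry1 (adjusted p = 0.0021), differed between cultures at an adjusted p of at most 0.01, a share no higher than the 23.4% of all genes that passed. The median of the largest log2 difference between any 2 cultures was 0.50 for the members and 0.46 for all genes tested. Per2 was lower in culture 2 than in culture 1 by a log2 difference of -2.20 and in culture 3 by -2.15, while cultures 2 and 3 differed from each other by 0.06. Cry1 showed a graded order, with log2 differences of -0.71 and -1.29 from culture 1. At the other end, Per1, Cry2 and Dbp had largest log2 differences between cultures of 0.07, 0.14 and 0.16, with adjusted p-values of 0.95, 0.74 and 0.69. Without culture 1 no member differed between cultures 2 and 3 in edgeR at the threshold, beside 2.47% of all genes, and 2 members and 13.4% of all genes had an unadjusted p under 0.05. Without culture 2, 6 members differed between cultures 1 and 3, beside 36.6% of all genes, and without culture 3 only Per2 differed, beside 22.6%. The high Per2 and Cry1 levels thus belonged to the culture that also had the high fibroblast and smooth muscle markers and the low Schwann cell markers, and the cell make-up and the culture cannot be told apart here.

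**Figure D3:**
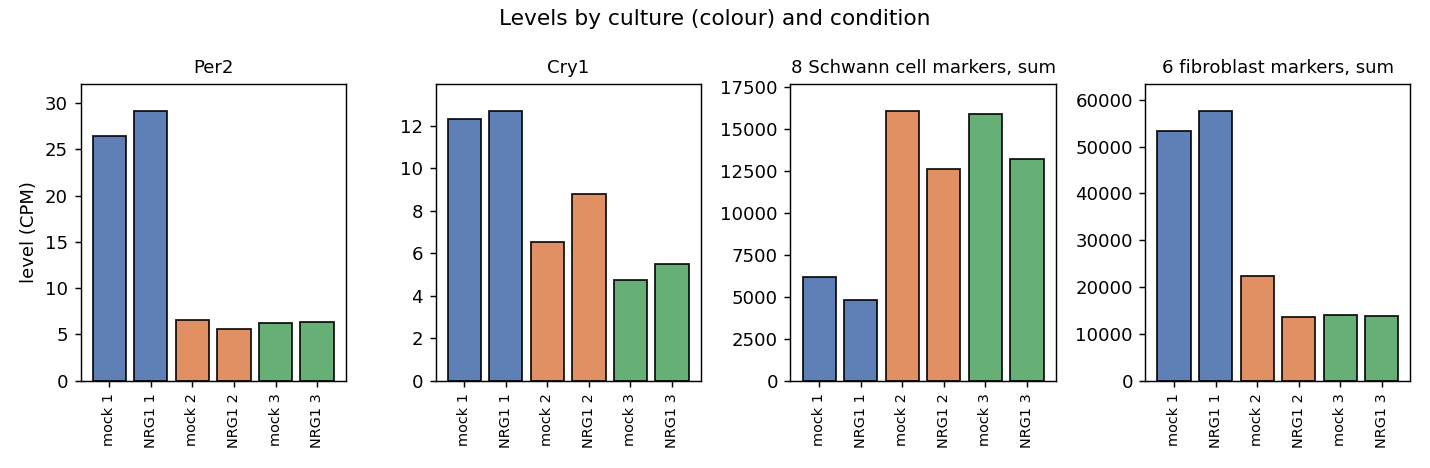
Levels in CPM (bars, from 0) of Per2, Cry1, the sum of 8 Schwann cell markers and the sum of 6 fibroblast markers in each sample, coloured by culture. Both samples of culture 1 are high for Per2 (26.5 and 29.2 CPM), Cry1 and the fibroblast markers and low for the Schwann cell markers.

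The other genes of the pathway were taken from a list of 34 regulators and outputs, of which 28 were in the files and 27 passed the filter. Of these 27, Nampt rose and Tef fell, and 25 did not pass, so that 1 gene passed upwards, beside 6.31% of all genes, and 1 downwards, beside 5.51%. The median log2 fold change of the 27 genes was -0.05, beside -0.03 for all genes tested. Nampt encodes the enzyme that limits the salvage synthesis of NAD and is a known output of CLOCK and BMAL1. Its level was 52.3 ± 16.5 CPM in mock and 167 ± 31.7 CPM with NRG1 (SD, n = 3 each), a log2 fold change of 1.69 (SE 0.14, adjusted p = 4.6e-06), and it was the only gene of the list past both of the study's thresholds. Tef, a D-box activator of the same family as Dbp, had a level of 93.4 ± 9.20 CPM in mock and 57.1 ± 8.03 CPM with NRG1 (SD, n = 3 each). Its log2 fold change of -0.72 (SE 0.12, adjusted p = 0.00088) had the same sign as that of Dbp, -0.52 (SE 0.13). The log2 ratios of Tef within cultures were -0.51, -0.82 and -0.81. Without culture 3 the adjusted p of Tef was 0.013. Nfil3, which encodes the repressor that competes for the same D-box sites, had a log2 fold change of -0.54 (SE 0.26, adjusted p = 0.15).

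In the remaining groups of that list no gene passed in edgeR at an adjusted p of at most 0.01. Among activators, Npas2, which can replace Clock as the partner of BMAL1, had a log2 fold change of 0.37 (SE 0.12, adjusted p = 0.044). Among the E-box repressors, Bhlhe40, whose product competes with CLOCK and BMAL1 for E-boxes, had the largest value, 0.57 (SE 0.17, adjusted p = 0.024), and was higher with NRG1 in each culture. Of the 6 kinases and ubiquitin ligases that set the life of PERIOD and CRY proteins, Csnk1d and Csnk1e, the casein kinases that phosphorylate PERIOD proteins, had log2 fold changes of 0.13 each. Neither was the gene farthest from 0 in that group, whose value is not reported here. Of the partner proteins, Nono had the largest value at 0.18, with an adjusted p of 0.31. Of the 5 genes of cAMP and CREB signalling, Crem, which encodes activating and repressing CREB relatives including the cAMP-induced early repressor, was farthest from 0 at -0.51 (SE 0.14, adjusted p = 0.017), and Sik1, a kinase induced by cAMP that restrains CREB coactivators, had -0.18 (adjusted p = 0.57). Rorb, a nuclear receptor that acts on the same elements as the REV-ERB receptors, had -0.18 (adjusted p = 0.58). Usp2, an output gene that encodes a deubiquitinase, had the lowest value of the list at -0.95 (SE 0.27, adjusted p = 0.019), from 22 to 70 counts per sample.

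**Figure D4:**
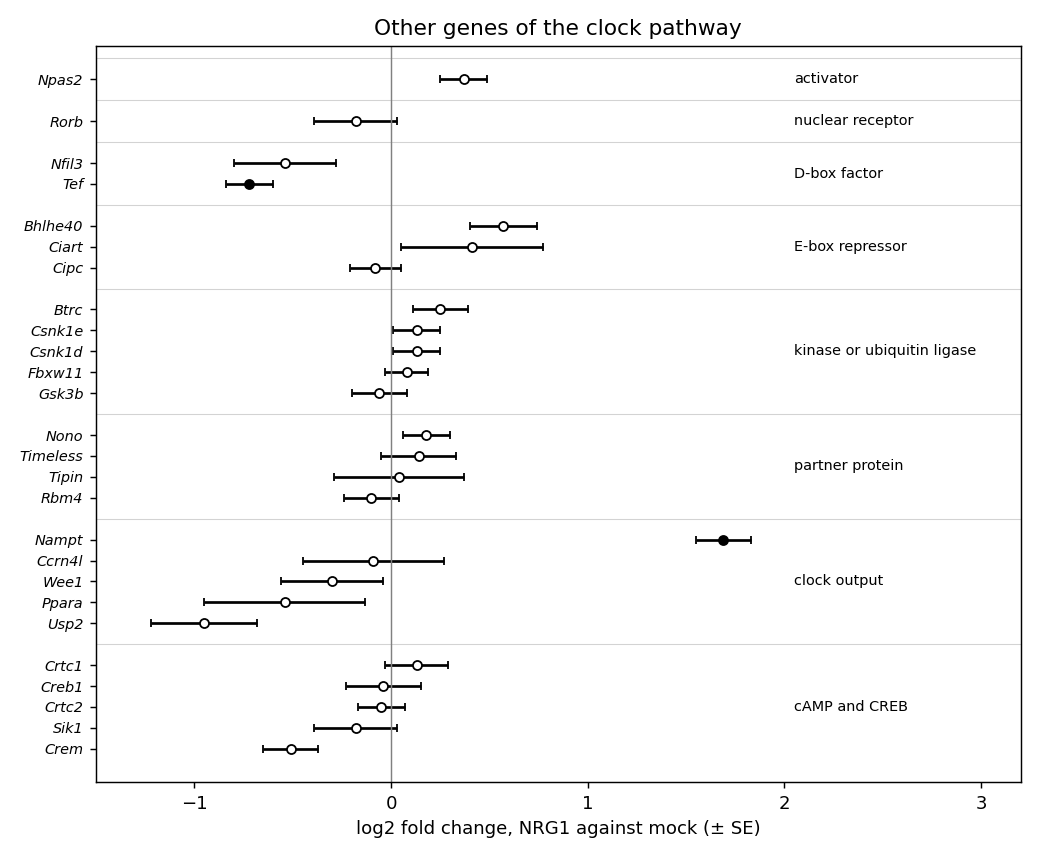
EdgeR log2 fold change of NRG1 against mock (points, bars ± standard error) for 26 of the 27 tested genes of the wider clock list, grouped by role. Filled points, Nampt at 1.69 and Tef at -0.72, had an adjusted p of at most 0.01, and the other 24 genes shown are open.

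Finally, the genes whose levels followed those of Nr1d2 most closely over the 6 samples were Prpf18, Crebrf, Hook1, Tfdp2 and Dhx40, with Pearson r between 0.9914 and 0.996. The 6 samples came from 3 cultures and share libraries and depth, and the values are a description without a test. Because the genes were picked for following Nr1d2, which fell, lower levels with NRG1 follow largely from that choice and are not a separate result. In edgeR, Crebrf, Hook1, Tfdp2 and Dhx40 had log2 fold changes of -0.75, -1.59, -1.26 and -0.71 and adjusted p-values of at most 0.00076. Prpf18 had -0.27 (adjusted p = 0.11). Of all genes tested, 5.51% fell.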

How the data were processed

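RNA of 6 samples, 3 mock and 3 NRG1, was analysed. According to the study's methods and the submitters' processing notes, reads were mapped to rn5 with TopHat2 2.0.10 and counted per RefSeq gene with HTSeq, and the authors deposited the raw counts, 1 file per sample. Strand setting and HTSeq version were not given in the sources used here. The 5 summary lines of each file, which held between 50.1% and 53% of the alignments, were left out. From the counts, edgeR 4.0.16 in R 4.3.3 was used with filterByExpr (minimum count 10, 9740 of 17327 genes kept), TMM normalisation and a quasi-likelihood model with condition and replicate number, since the study's design was paired. Benjamini-Hochberg adjustment covered all genes tested, and each SE was obtained as the log2 fold change over the root of F. CPM values use TMM-scaled library sizes, and log2 ratios within cultures use a prior count of 2. The labels number the independent cell preparations, which gives the pairing. Deviations from group means correlated across genes with r of 0.91, 0.67 and 0.81 for equal numbers, and with r between -0.80 and 0.51 for different numbers, the highest of these between cultures 2 and 3. Differences between cultures were tested with the replicate coefficients of the same model. No 2 samples agreed within sampling noise. The fit was tested on simulated counts. Alternatives were no replicate block, DESeq2 1.42.0 with and without the block, limma-voom (limma 3.58.1), RLE, other filters, thinned counts, each replicate left out, an adjusted p of 0.05 and a fold threshold inside the test. The members and lists were chosen with earlier results of these data known. Named genes were the 10 members, the listed genes that passed, the gene farthest from 0 in each group of the list except the kinases and ubiquitin ligases, and the 5 genes closest to the member with the smallest adjusted p. The values of 2 listed genes are not reported here. Csnk1d, Csnk1e, Nfil3 and Sik1 were added for their roles after their values had been seen. The files give no gene lengths, so levels were not compared between genes.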

Additional observations from a re-analysis of the deposited data

How the results depend on the processing

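The direction of Per1, Nr1d2, Dbp, Tef and Nampt was the same under all alternatives. In the fit with no replicate block, 0 members fell and 0 of the 9740 genes passed, against 1152 with the block, and in the wider list 0 genes rose and 0 fell. DESeq2 with no replicate block gave 1 member and 0 genes of the wider list that fell, with 178 genes over all. With the fold change threshold inside the test, 0 members and 0 listed genes fell, and 22 genes passed in all. At an adjusted p of at most 0.05, 1 member rose (Arntl), 3 listed genes rose and 4 fell, and 2260 genes passed in all. With no low-count filter, 3 listed genes fell, and 13% of 13129 genes passed in either direction. Leaving out each replicate in turn gave 0 to 1 members that rose, 1 to 2 that fell, 0 to 1 past both of the study's thresholds downwards, and 0 to 2 genes of the wider list that fell. Of all genes, 12% passed in either direction without replicate 1, 8.86% without replicate 2 and 6.51% (661 genes) without replicate 3. In those fits the number of members that differed between cultures ranged from 0 (without replicate 1) to 6 (without replicate 2). The values near 0 that changed sign or reached it were Clock (from -0.03 without replicate 3 to 0.23), Per2 (from -0.08 without replicate 1 to 0.1) and Nr1d1 (from -0.24 to 0 without replicate 2). The cause of these shifts was not tested, except that a left-out replicate leaves fewer samples. With counts thinned to the smallest library, Cry1 kept a log2 fold change of 0.22, with an adjusted p of 0.52.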

Other observations

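Further genes of the wider clock list were set apart by culture 1, as Per2 was. They were chosen after their values had been seen and were not tested between cultures. Culture 1 also stood apart over all genes. In edgeR at an adjusted p of at most 0.01, 22.6% of them differed between cultures 1 and 2. Between cultures 1 and 3 the share was 36.6%, and between cultures 2 and 3 it was 2.47%. Sik1, a kinase induced by cAMP, was counted at 219, 26 and 44 counts in mock samples 1, 2 and 3 and at 231, 22 and 43 counts in NRG1 samples. Bhlhe40 was counted at 231, 34 and 74 counts in mock and at 326, 80 and 127 counts in NRG1 samples. Nfil3 had 147, 35 and 106 counts in mock and 167, 25 and 55 counts in NRG1 samples. For each of these genes the highest CPM of both groups was that of culture 1, although its libraries were among the smaller ones. Arntl2, which encodes a relative of BMAL1 and did not pass the filter on low counts, had 44 and 62 counts in culture 1 and 4 or 5 counts in every sample of the others. In contrast Cipc, whose product binds and represses CLOCK, had 212, 303 and 590 counts in mock samples and 232, 356 and 632 counts in NRG1 samples, with its lowest CPM in culture 1.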
